A study of Mus musculus with 12 samples.

Results

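The natriuretic peptide system was described in mouse heart through 9 genes chosen for their known roles in it, out of 19937 genes measured. They are the peptides Nppa, Nppb and Nppc, the receptors Npr1, Npr2 and Npr3, and the proteases Corin, Furin and Mme. The choice of genes used no rule on measured values, but it was made with earlier results of these data known, so it was not blind to them. Each gene had 1 probe set, so no choice between probe sets was needed, and the mean level of each passed the filter on low values used as an alternative (a mean log2 intensity of 5.73).

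RNA was taken from hearts of 3 groups of 4 samples each: control mice, mice with IDH2 R140Q and mice with IDH2 R172K. IDH2 is the mitochondrial isocitrate dehydrogenase, and both mutant enzymes are known to make D-2-hydroxyglutarate. The series concerns cardiomyopathy. All groups share a strain background that mixes C57BL/6, 129/sv and Balb/c. Mutant animals received 2 mg of 4-hydroxytamoxifen for 3 days at an age of 5 weeks. The sources used here do not state what control mice received; if they did not receive the drug, drug and mutation cannot be told apart in a comparison with control. Nor do they state which promoter drives the mutant enzyme or a recombinase, or the sex and age at dissection. The labels number the samples of a group as replicates and do not name animals, so a p-value measures the spread between numbered samples, which may be technical.

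ANP, the product of Nppa, and BNP, the product of Nppb, are hormones of heart muscle that are released when the chamber wall is stretched, and ventricular muscle makes more of them under load or in heart failure. Both are made as propeptides. The membrane protease corin cuts proANP, furin and corin cut proBNP, and neprilysin, encoded by Mme, is one of the enzymes that degrade the mature peptides. They act through NPR-A (Npr1), a receptor that makes cyclic GMP, while CNP (Nppc) acts through NPR-B (Npr2), and NPR-C (Npr3) removes all of these peptides from the circulation.

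Nppb and Nppa lie next to each other on chromosome 4, on the same strand, with 0 measured genes between them in the order of gene starts of assembly GRCm38.p6. The windows around their starts are shown because Nppb passed the test in both mutants and the adjacent Nppa in neither; the difference between the genes itself was not tested. Each window holds the 250 bases before and the 50 bases after the start, from RefSeq, on the + strand, at chr4:147985650-147985949 for Nppb and chr4:148000472-148000771 for Nppa. Capitals mark matches to a searched motif.
Nppb: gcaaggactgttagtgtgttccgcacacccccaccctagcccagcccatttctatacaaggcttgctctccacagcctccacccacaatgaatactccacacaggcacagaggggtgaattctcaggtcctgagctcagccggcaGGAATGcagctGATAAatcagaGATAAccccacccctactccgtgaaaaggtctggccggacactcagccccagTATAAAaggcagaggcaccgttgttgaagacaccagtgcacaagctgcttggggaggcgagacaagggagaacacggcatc
Nppa: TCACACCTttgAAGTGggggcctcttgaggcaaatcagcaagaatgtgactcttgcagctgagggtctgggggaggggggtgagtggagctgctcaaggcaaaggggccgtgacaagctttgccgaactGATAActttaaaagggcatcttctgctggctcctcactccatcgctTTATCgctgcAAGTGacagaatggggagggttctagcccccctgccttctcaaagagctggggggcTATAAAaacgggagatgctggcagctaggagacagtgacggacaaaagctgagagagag
The motifs below were searched on both strands, and no matches overlapped. GATAA, a core bound by GATA factors, was found at 94 and 83 bases before the Nppb start and at 121 and, on the opposite strand, 75 bases before the Nppa start; 25.4% of 32851 RefSeq windows of this length hold it. TATAAA stood 31 bases before the Nppb start and 9 before the Nppa start, against 13.6% of windows. CATTCC, the M-CAT element bound by TEAD factors, matched the opposite strand 105 bases before the Nppb start and had no match in the Nppa window, against 14.7% of windows. The Nppa window held the T-box letters TCACACCT at 250 bases and the NKX2-5 core AAGTG at 239 and 65 bases before the start, which 1.3% and 46.4% of windows hold, and the Nppb window held neither. A match is a run of letters and was not tested as a site of binding.

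Among the 3 peptide genes, Nppb was higher in both mutant groups, while neither Nppa nor Nppc passed the test in either. Levels are log2 of the deposited array intensity, and a gene was called at an adjusted p under 0.05, from limma with Benjamini-Hochberg adjustment over all 19937 genes. Levels of different genes cannot be set against each other on this array.

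Control hearts had Nppb levels of 10.27, 10.58, 10.47 and 9.77. R140Q hearts had 12.35, 12.10, 12.75 and 12.49, and R172K hearts had 12.36, 12.38, 11.25 and 12.65. All 8 mutant samples lay above all 4 controls, and R172K replicate 3 was the lowest of the mutants. The mean rose from 10.27 ± 0.36 (SD, n = 4) to 12.42 ± 0.27 in R140Q and 12.16 ± 0.62 in R172K. That is a difference of 2.15 ± 0.27 (SE) in R140Q, or 4.43-fold (95% interval 2.95 to 6.65, limma adjusted p = 0.00394). In R172K the difference was 1.89 ± 0.27, or 3.69-fold (2.46 to 5.54, limma adjusted p = 0.00201). Nppb passed the test in both comparisons under all 25 alternative settings, with a highest adjusted p of 0.0349 in R140Q and 0.0106 in R172K. The mutant groups differed by -0.26 (R172K minus R140Q, 95% interval -0.85 to 0.32, limma adjusted p = 0.716).

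Nppa levels overlapped between all groups and were spread unequally within them. The control samples had 12.01, 12.20, 13.48 and 11.08. The R140Q samples had 12.74, 7.85, 13.20 and 12.81, and the R172K samples 13.35, 12.98, 13.33 and 13.11. R140Q replicate 2 stood far below every other sample, although its Nppb level of 12.10 was above all controls. The 4 R172K samples lay within a narrow range near the level of control replicate 3, the highest control. All 4 R172K samples and 3 of 4 R140Q samples lay above the control mean. Nppa differed from control by -0.54 in R140Q (95% interval -2.59 to 1.51, limma adjusted p = 0.845) and by 1.00 in R172K (-1.05 to 3.05, limma adjusted p = 0.566). These intervals are wide enough to hold both a fall and a rise of 2-fold in R140Q. Without R140Q replicate 2 its difference turned to 0.72 (limma adjusted p = 0.414). The fit shares its estimate of the spread over all groups, so that sample also widened the interval of R172K against control. With control and R172K fitted alone, the difference of 1.00 had limma adjusted p = 0.164. The mutants differed by 1.54 (R172K minus R140Q, -0.51 to 3.59, limma adjusted p = 0.470), and by 0.27 without R140Q replicate 2 (0.836).

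**Figure D1:**
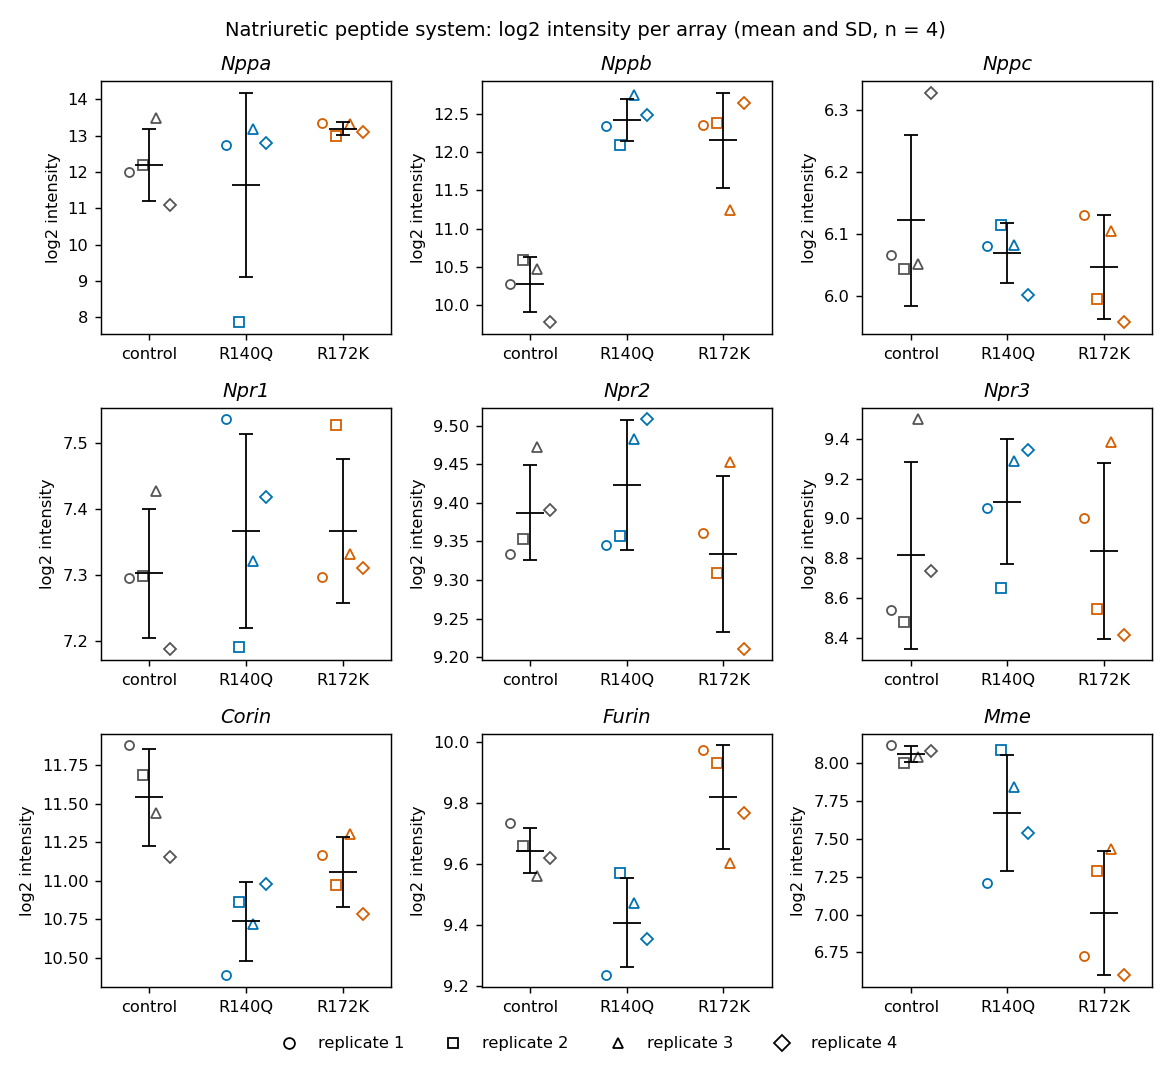
Log2 intensity of the 9 genes in each of the 12 samples, 1 panel per gene, with samples grouped as control, R140Q and R172K; points are samples and bars are the mean ± SD of 4 samples. Both mutant groups lie above all controls for Nppb, R140Q replicate 2 stands alone at 7.85 for Nppa, and R172K lies below all controls for Mme.

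Nppa is abundant in atrial muscle, and atrial markers differed widely between the samples. The 13 atrial markers summed to intensities of 5606 to 25213 in control, 5312 to 6890 in R140Q and 8469 to 17712 in R172K, and no marker is listed at 0. Pam had the highest level of the 13 in every R140Q sample (11.62 to 12.23), so the sums there mostly follow Pam. It differed from control by 0.45 in R140Q, against the median of all 13 given below. The mean log2 level of the 13 ran over 7.17 to 9.10 in control, 7.01 to 7.22 in R140Q and 7.69 to 8.64 in R172K. Myl7, the atrial regulatory light chain, had levels of 8.58, 6.18, 12.49 and 8.99 in control, 6.04, 5.33, 5.54 and 5.23 in R140Q, and 8.47, 7.43, 11.36 and 9.21 in R172K. Control replicate 3 and R172K replicate 3 were the highest for Myl7, and every R140Q sample lay below every control and R172K sample. In R140Q, where 2.20% of all genes were called, 0 of 13 atrial markers passed in limma (6 at an unadjusted p under 0.05). Up to 2 were lower with single samples left out, and the median difference was -0.89 against 0.003 over all genes. In R172K, where 13.0% of all genes were called, 1 was higher (Pam) and 1 lower (Kcnj3), with a median of 0.07 against -0.003. The Kcnj3 call was lost without control replicate 3 or R172K replicate 1, 2 or 4. With the mean atrial marker level as a covariate, Nppa differed from control by 0.13 in R140Q (limma adjusted p = 0.978) and by 0.86 in R172K, and Nppb by 2.00 and 1.92. The covariate was lower in every R140Q sample than in every R172K sample, and R140Q overlapped control only at the low end of control. The covariate and the R140Q group can therefore hardly be separated, which limits every R140Q value from this fit, here and below. In whole-heart RNA, fewer cells of a type and less RNA per cell cannot be told apart.

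**Figure D2:**
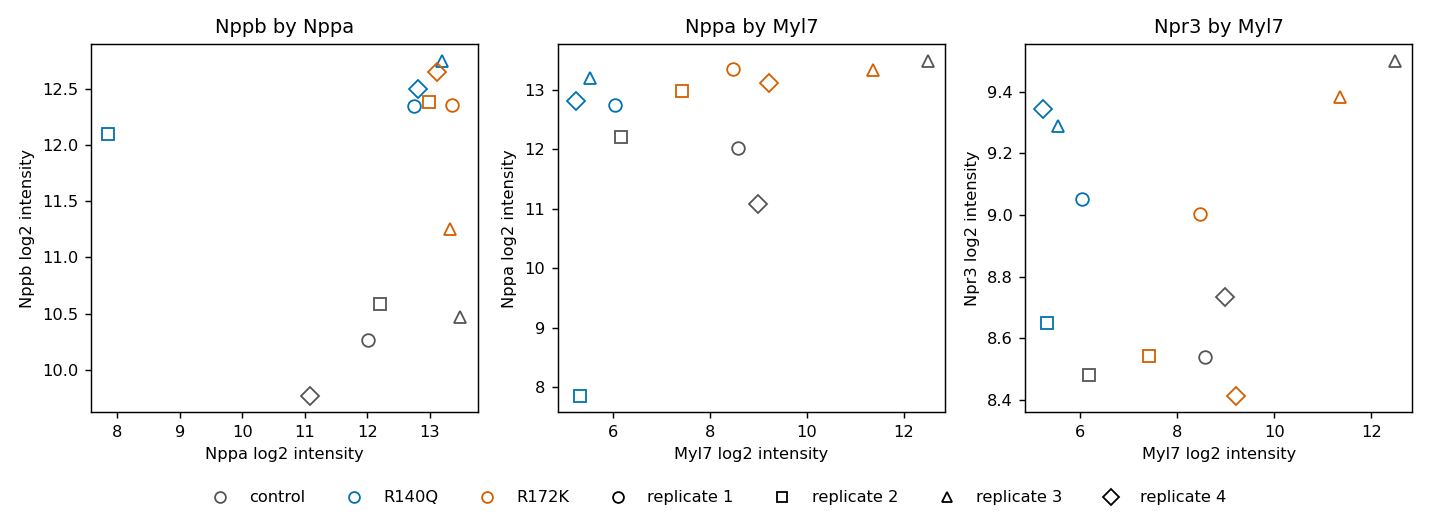
Log2 intensities of the 12 samples, coloured by group: Nppb against Nppa, Nppa against the atrial light chain Myl7, and Npr3 against Myl7. R140Q replicate 2 has the lowest Nppa (7.85) with a high Nppb (12.10), and control replicate 3 has the highest Myl7 (12.49) and the highest Nppa (13.48).

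Nppc, whose peptide CNP is made mainly outside heart muscle, was close to constant. Its level was 6.12 ± 0.14 in control, 6.07 ± 0.05 in R140Q and 6.05 ± 0.08 in R172K (SD, n = 4 each). Control replicate 4 was the highest sample at 6.33, and the other 11 lay between 5.96 and 6.13. The differences from control were -0.05 (95% interval -0.21 to 0.11, limma adjusted p = 0.806) in R140Q and -0.07 (-0.24 to 0.09, limma adjusted p = 0.587) in R172K.

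None of the 3 receptor genes passed the test in any comparison. Npr1, the guanylyl cyclase receptor of ANP and BNP, had levels of 7.30, 7.30, 7.43 and 7.19 in control. It had 7.54, 7.19, 7.32 and 7.42 in R140Q, and 7.30, 7.53, 7.33 and 7.31 in R172K. The groups overlapped, and R172K replicate 2 lay apart from the other 3 of its group. The difference from control was 0.06 in each mutant group, with 95% intervals of -0.12 to 0.25 in both and limma adjusted p = 0.788 in R140Q and 0.703 in R172K. On the linear scale these intervals leave out a change larger than 1.19-fold upward in either mutant.

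Npr2, the receptor of CNP, varied least of the receptors. Its level was 9.39 ± 0.06 in control, 9.42 ± 0.08 in R140Q and 9.33 ± 0.10 in R172K (SD, n = 4). The differences from control were 0.04 (95% interval -0.11 to 0.18, limma adjusted p = 0.862) and -0.05 (-0.20 to 0.09, limma adjusted p = 0.685). The groups overlapped.

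Npr3, the clearance receptor, varied more within groups than between them. Control samples had 8.54, 8.48, 9.50 and 8.74, R140Q samples 9.05, 8.65, 9.29 and 9.35, and R172K samples 9.004, 8.54, 9.38 and 8.41. Control replicate 3 and R172K replicate 3, the samples highest in Myl7, were also the highest of their groups for Npr3. The part of atrial tissue in the Npr3 level was not tested beyond the covariate, with which the difference from control was 0.73 in R140Q (limma adjusted p = 0.181) and -0.07 in R172K. Without it the differences were 0.27 (95% interval -0.28 to 0.82, limma adjusted p = 0.666) and 0.02 (-0.53 to 0.57, limma adjusted p = 0.972).

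Among the proteases, Corin fell in R140Q and Mme fell in R172K. Corin, the membrane protease that activates proANP, had control levels of 11.88, 11.69, 11.44 and 11.16. R140Q samples had 10.39, 10.86, 10.72 and 10.98, and R172K samples 11.16, 10.97, 11.31 and 10.78. All R140Q samples lay below all controls, while the lowest control, replicate 4, lay within the range of the R172K samples and the other 3 controls lay above it. Corin fell by 0.80 ± 0.17 (SE) in R140Q, to a level 1.74-fold lower (95% interval 1.36 to 2.24, limma adjusted p = 0.0309). In R172K its difference was -0.48 (-0.85 to -0.12, limma adjusted p = 0.0763), with all 4 samples below the control mean, and the mutants differed by 0.32 (R172K minus R140Q, -0.04 to 0.68, limma adjusted p = 0.384).

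The R140Q call of Corin was lost when control replicate 1 (limma adjusted p = 0.1003), 2 (0.0960) or 3 (0.0631) or R140Q replicate 1 (0.0875) or 3 (0.0896) was left out, and the R172K difference passed without control replicate 4 (-0.61, 0.0372) or R172K replicate 3 (-0.57, 0.0394). With the atrial covariate Corin differed by -0.88 in R140Q with limma adjusted p = 0.0986, and without control replicate 3, R140Q replicate 4 and R172K replicate 3 by -0.92 with 0.0480. Corin is a product of heart muscle cells. The 12 cardiomyocyte markers summed to 97379 to 101713 in control, 91060 to 95225 in R140Q and 74409 to 90477 in R172K. In R140Q, where 2.20% of all genes were called, 0 of them passed in limma (3 at an unadjusted p under 0.05). In R172K, where 6.78% of all genes were called lower, 4 were lower (1 to 5 with single samples left out) and 8 did not pass. The lower ones were Myl2, Ryr2, Pln and Tnni3. The part of these markers in the Corin result was not tested.

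Furin, the convertase that cuts proBNP, had a lower mean than control in R140Q and a higher one in R172K, and passed against control in neither. Control samples had 9.74, 9.66, 9.56 and 9.62, R140Q samples 9.23, 9.57, 9.47 and 9.35, and R172K samples 9.97, 9.93, 9.60 and 9.77. Every R172K sample lay above every R140Q sample, and both groups overlapped the controls. Furin differed from control by -0.24 ± 0.09 (SE, limma adjusted p = 0.212) in R140Q and by 0.18 ± 0.09 (limma adjusted p = 0.261) in R172K. Between the mutants the difference was 0.41 ± 0.09 (R172K minus R140Q, 95% interval 0.21 to 0.62), with limma adjusted p = 0.0512, just beyond the threshold. Without R172K replicate 3, the lowest R172K sample, it was 0.48 with limma adjusted p = 0.00712.

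Mme, which encodes the peptide-degrading enzyme neprilysin, was nearly constant in control, at 8.12, 8.001, 8.04 and 8.08. R140Q samples spread from that level downward, at 7.21, 8.09, 7.84 and 7.54, and R172K samples had 6.73, 7.29, 7.43 and 6.60. All R172K samples lay below all controls, and R140Q replicate 2 lay among the controls. Mme fell by 1.05 ± 0.20 (SE) in R172K, to a level 2.07-fold lower (95% interval 1.53 to 2.80, limma adjusted p = 0.00678), and passed under all 25 alternative settings, with a highest adjusted p of 0.0267. In R140Q the difference was -0.39 (-0.82 to 0.04, limma adjusted p = 0.352). The mutants differed by -0.66 (R172K minus R140Q, -1.09 to -0.23, limma adjusted p = 0.117), and by -0.80 with limma adjusted p = 0.0289 without R172K replicate 3.

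The 2 lowest Mme samples, R172K replicates 4 and 1, also had the highest summed intensities of the 12 fibroblast markers, at 26169 and 20072. That sum ranged over 12087 to 16618 in control, 12461 to 17827 in R140Q and 14709 to 26169 in R172K. Of the 12 markers 6 were higher in R172K (3 to 6 with single samples left out), where 6.23% of all genes were called higher. They were Pdgfra, Postn, Col1a1, Col1a2, Col3a1 and Meox1. The other 6 did not pass: Gsn (-0.32), Dpt (-0.35), Dcn (0.10), Tcf21 (0.12), Lum (0.19) and Pdgfrl (0.64). The part of cell makeup in the Mme result was not tested.

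**Figure D3:**
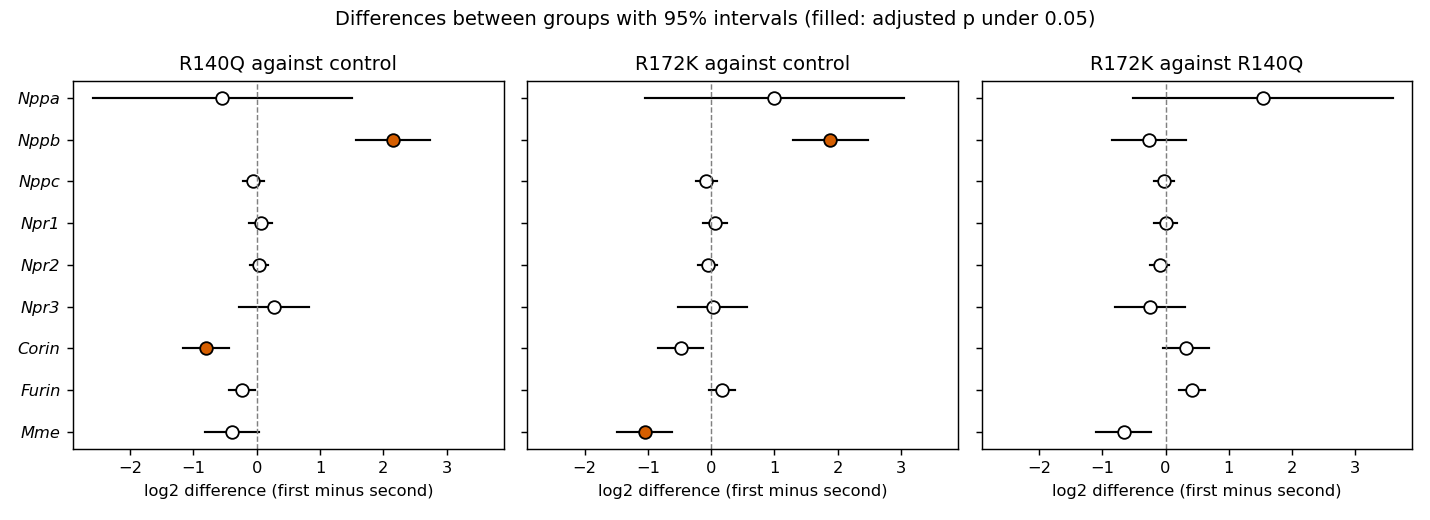
Log2 differences of the 9 genes for R140Q against control, R172K against control and R172K against R140Q, with 95% intervals from limma. Filled points passed at limma adjusted p under 0.05: Nppb in both mutants (2.15 and 1.89), Corin in R140Q (-0.80) and Mme in R172K (-1.05); the interval of Nppa is the widest.

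Counted over the system, 2 of 9 genes were called in R140Q, where 2.20% of all genes were called in either direction. By direction, 1 was higher (Nppb), against 1.08% of all genes, 1 was lower (Corin), against 1.12%, and 7 did not pass. Groups that did not overlap were found for Nppb above control and Corin below it, as for 7.79% and 7.04% of all genes. The median difference of the 9 genes was -0.05, beside 0.003 over all genes.

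In R172K 2 of 9 genes were called, where 13.0% of all genes were: 1 higher (Nppb, against 6.23%), 1 lower (Mme, against 6.78%) and 7 not called. The groups did not overlap for these, as for 7.47% of all genes upward and 8.72% downward, and the median difference was 0.02 beside -0.003 over all genes. Between the mutants 0 of 9 passed in limma, where 1.48% of genes were called, and 2 of 9, Furin and Mme, had an unadjusted p under 0.05. The other differences, R172K minus R140Q, were -0.02 for Nppc, 0.00054 for Npr1, -0.09 for Npr2 and -0.25 for Npr3, with limma adjusted p from 0.583 to 0.999. Furin alone had groups that did not overlap, with R172K above R140Q, as did 3.07% of all genes, while 4.64% did so in the other direction. Both comparisons with control use the same 4 control samples, so their results for a gene are not independent.

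The second messenger of the natriuretic receptors is cyclic GMP. Of 23 genes that make, bind or degrade it, or act after it, 3 were higher and 1 lower in R140Q, where 2.20% of all genes were called, with a median difference of 0.11 against 0.003 over all genes. They were Vasp, a substrate of the cGMP-dependent kinase (0.44, limma adjusted p = 0.0409), the endothelial nitric oxide synthase Nos3 (0.31, 0.0445), the phosphodiesterase Pde10a (0.34, 0.0495) and, lower, the phosphodiesterase Pde1c (-0.54, 0.0445). All 4 calls were lost when control replicate 1, 2 or 3, R140Q replicate 1 or R172K replicate 2 was left out. Endothelial markers summed to 13806 to 14562 in control and 15926 to 16538 in R140Q, and 3 of 14 were higher there (Cdh5, Kdr and Esam, each lost without control replicate 1 or R140Q replicate 3). Their part in the Nos3 result was not tested.

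In R172K, 5 of the 23 were higher and 0 lower in limma (12 at an unadjusted p under 0.05), where 13.0% of all genes were called, with a median of 0.08 against -0.003. Vasp was higher here too (0.40, limma adjusted p = 0.0203), with Pde1a (0.67, 0.0131), the soluble guanylyl cyclase subunit Gucy1b1 (0.33, 0.0231), the myosin phosphatase subunit Ppp1r12a (0.34, 0.0364) and Pde1b (0.32, 0.0371). Pde1a passed whichever sample was left out, and the number of higher genes ranged from 1 to 8 over those fits. The other 4 calls were each lost without control replicate 2, among other samples. R172K replicate 4 was the highest for Pde1a, at 7.77 against 6.93 to 7.02 in the other 3 and 6.44 to 6.65 in control.

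The cGMP-dependent kinase Prkg1 differed by 0.07 in R140Q and 0.08 in R172K (limma adjusted p = 0.724 and 0.576). Pde5a, the cGMP-specific phosphodiesterase, differed by 0.23 and 0.27 (0.230 and 0.0780). Rgs2, a brake on G protein signalling that this kinase activates, differed by -1.31 in R140Q (0.0596) and -0.36 in R172K (0.550). Its R140Q samples had 6.65, 8.25, 7.49 and 7.31, all below the controls at 8.57 to 9.10. Of the 23 genes, 0 passed between the mutants in limma, 10 had an unadjusted p under 0.05, and up to 3 were higher and up to 3 lower with single samples left out.

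Of 25 measured transcription regulators with a known role at natriuretic peptide genes, 0 passed in R140Q in limma (7 at an unadjusted p under 0.05), where 2.20% of all genes were called, with a median difference of -0.05 against 0.003 over all genes. With single samples left out up to 1 was higher and up to 3 were lower there. In R172K 6 were lower, where 13.0% of all genes were called, with a median of -0.10 against -0.003. The 4 with the smallest p were the GATA cofactor Zfpm2 (-0.45, limma adjusted p = 0.00832), the chromatin regulator Jarid2 (-0.34, 0.0132), the calcium-regulated factor Nfatc3 (-0.29, 0.0226) and the calmodulin-binding activator Camta2 (-0.27, 0.0247). The others were Myocd, a partner of SRF (-0.50, 0.0265), and Nfatc2 (-0.31, 0.0367). Zfpm2 and Jarid2 passed whichever sample was left out. In R172K the list held 3 to 6 lower genes over those fits, and each of Nfatc3, Camta2, Myocd and Nfatc2 was lost without at least 1 of the controls and without R172K replicate 4 or 2.

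The factors whose motif letters stand in the windows shown above did not pass against control. Gata4 differed by 0.31 in R140Q and 0.28 in R172K (limma adjusted p = 0.402 and 0.325). Gata6, the other GATA factor listed, differed by -0.50 in R140Q (limma adjusted p = 0.1003) and by 0.04 in R172K (0.911). Its R140Q samples lay at 9.90 to 10.07, all below the controls at 10.40 to 10.67. Nkx2-5 differed by -0.01 and -0.23 (0.983 and 0.269), and Tead1 by 0.03 and 0.06 (0.898 and 0.678). Tbx5, which is also an atrial marker here, differed by -1.07 in R140Q (0.0525), with all 4 samples between 8.09 and 8.42 and controls at 8.91 to 10.25. In R172K Tbx5 differed by -0.28 (0.558). The T-box gene Tbx20 differed by 0.22 in R140Q and 0.45 in R172K (0.594 and 0.104), and Tbx2 and Tbx3 did not pass in either. Srf was lower in R172K than in R140Q by -0.40 (limma adjusted p = 0.0400), with means of 9.24 in control, 9.54 in R140Q and 9.14 in R172K; the call was lost without any single control, R140Q replicate 1, 3 or 4, or R172K replicate 1, 2 or 4.

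Of the other proteases 11.8% passed in R172K, where 13.0% of all genes were called, and 0 in R140Q, where 2.20% were. Of 17 measured processing and degrading enzymes, 0 passed in R140Q in limma (1 at an unadjusted p under 0.05, and up to 1 higher with single samples left out), and in R172K Ace, the angiotensin-converting enzyme, was higher (0.67, limma adjusted p = 0.0412) and Pcsk6, a convertase known to activate corin, was lower (-0.64, 0.0407). Each of the latter calls was lost when any of 9 single samples was left out, controls 1, 3 and 4 among them for both. Ace in R140Q differed by 0.68 (0.0909). Ide, the insulin-degrading enzyme that also degrades these peptides, differed by -0.19 in R140Q and -0.10 in R172K (0.315 and 0.568).

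Of 8 genes of secretory granules and peptide clearance, 0 passed in R140Q in limma (1 at an unadjusted p under 0.05). In R172K Pam alone was higher (0.59, limma adjusted p = 0.0457), or 12.5% of the list, where 13.0% of all genes were called. Pam encodes an amidating enzyme that is abundant in atrial granules. Its control samples had 11.49, 11.60, 12.15 and 11.25, its R140Q samples 12.21, 11.62, 12.23 and 12.22, and its R172K samples 12.26, 12.04, 12.30 and 12.25. R140Q replicate 2, the sample with the low Nppa, was the lowest mutant sample for Pam as well, and control replicate 3 the highest control. The Pam call was lost when any of 10 single samples was left out, every R172K sample among them. Ostn, which encodes osteocrin, a ligand of the clearance receptor, differed by -0.03 and 0.09 (0.900 and 0.512).

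**Figure D4:**
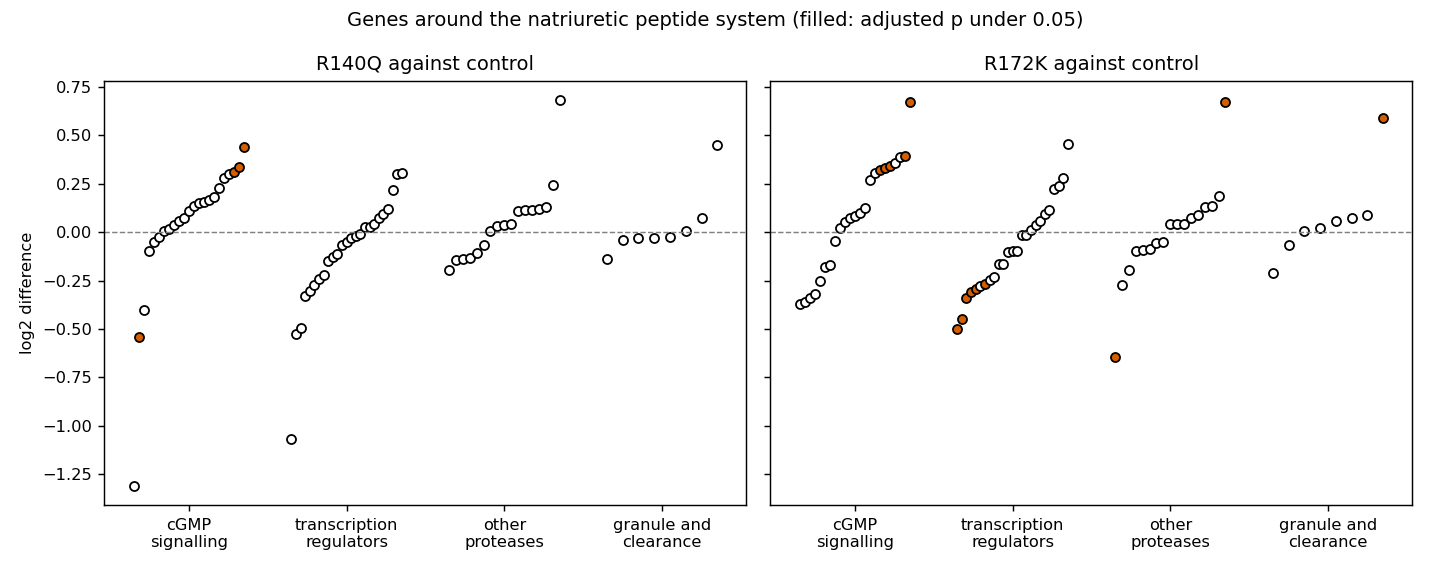
Log2 differences from control of the genes of 4 lists around the natriuretic peptide system, in R140Q and R172K; each point is a gene, sorted by its difference within a list, and filled points passed at limma adjusted p under 0.05. In R140Q the 4 filled points are all cGMP genes, and in R172K the 6 filled transcription regulators all lie below 0.

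The genes around Nppb and Nppa were compared by gene order, 8 measured genes on each side. In R140Q 1 of the 16 was higher, 2 were lower and 13 did not pass, where 2.20% of all genes were called; with single samples left out 0 to 3 were higher and 1 to 2 lower. In R172K 3 were higher, 3 lower and 10 did not pass, where 13.0% of all genes were called; with single samples left out 3 to 4 were higher and 1 to 4 lower. Between the mutants 0 passed in limma, and 1 had an unadjusted p under 0.05. The immediate neighbours did not pass in either: 2510039O18Rik differed by 0.06 and -0.08 (limma adjusted p = 0.763 and 0.532), and the chloride transporter gene Clcn6 by -0.30 and -0.19 (0.136 and 0.242).

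Fbxo44, a ubiquitin ligase subunit and the sixth gene after Nppa, rose the most of the 16. Its control samples had 5.98, 5.93, 7.45 and 7.42, its R140Q samples 8.58, 8.42, 8.72 and 8.51, and its R172K samples 8.92, 9.05, 8.78 and 8.29. All mutant samples lay above all controls, and the controls fell into a low and a high pair. The differences were 1.86 ± 0.32 in R140Q (limma adjusted p = 0.0151) and 2.07 ± 0.32 in R172K (0.00298). The R140Q call was lost without control replicate 1 or R140Q replicate 3, with a highest limma adjusted p of 0.0559, and the R172K call held whichever sample was left out. Fbxo6 and Fbxo2, which flank Fbxo44, differed by -0.03 and 0.005 in R140Q and by -0.05 in each case in R172K.

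Miip, on the Nppb side, was higher in R172K (0.54, limma adjusted p = 0.00740), as was Agtrap, the second gene after Nppa, which encodes a protein bound to the angiotensin receptor (0.34, 0.0102). Both passed whichever sample was left out. In R140Q they differed by 0.42 (0.0588) and 0.26 (0.0795). Rps19-ps3 (-0.56 and -0.41) and Zfp933 (-0.39 and -0.30) were lower in both mutants, and Fv1 in R172K (-0.62). Rps19-ps3 is a pseudogene copy and Zfp933 belongs to a zinc finger family, so their probes may read related sequences. Both Zfp933 calls were lost without control replicate 1, 2 or 3, among other samples, and that of Fv1 without control replicate 2 or R172K replicate 1 or 4.

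**Figure D5:**
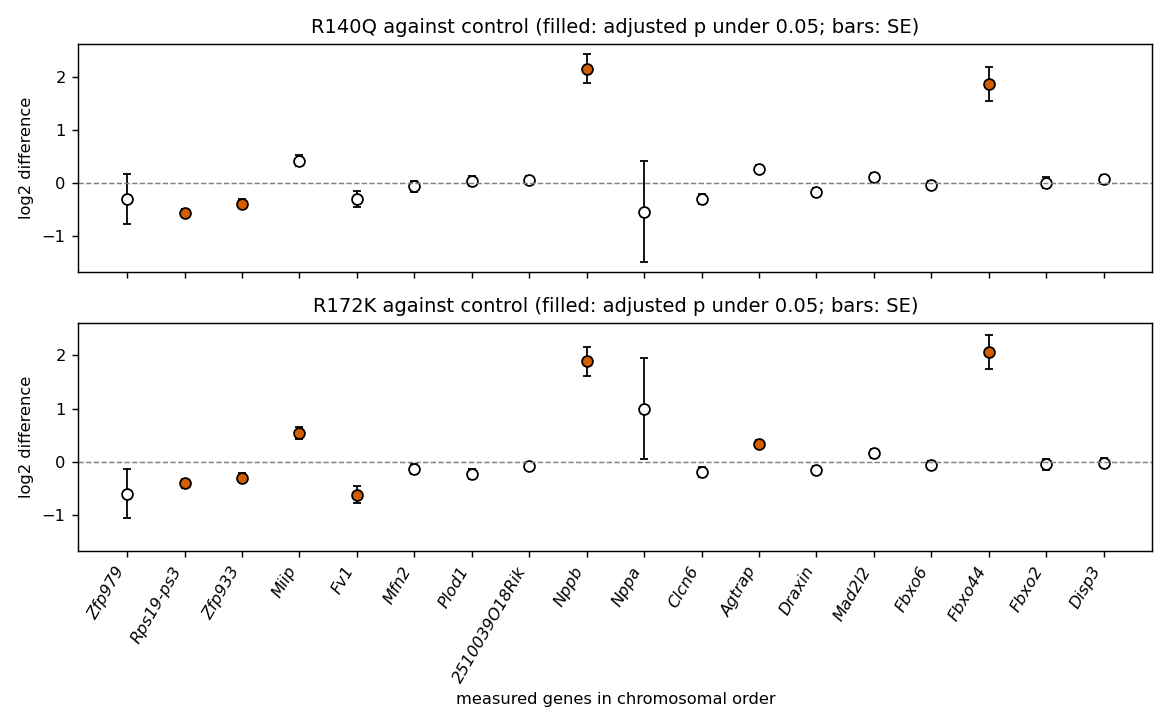
Log2 differences from control, with SE bars, of Nppb, Nppa and the 8 genes on each side in gene order, for R140Q and R172K. Nppb (2.15 and 1.89) and Fbxo44 (1.86 and 2.07) stand above the rest, and the genes between them that follow Nppa lie between -0.30 and 0.34.

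The genes whose levels ran most like those of Nppa and Nppb were listed by Pearson's r over the 12 samples, as a description. Samples within a group share its condition, and group differences alone can raise r. For Nppb they were Srgap2 (0.952), Lamtor3 (0.950), Pde8a (0.949), Mafk (0.948) and Gatad2a (0.948). After each group mean was subtracted they were Slf2 (0.975), Nup43 (0.970), Slain2 (0.966), Rnft1 (0.954) and Prrc1 (0.944), so no gene was on both lists.

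For Nppa they were Phf21a (0.931), Rassf6 (0.923), Zfp974 (0.900), Ebf2 (0.891) and Snx30 (0.887), and each of these had its lowest level in R140Q replicate 2. Without that sample their r was 0.803, 0.812, 0.602, 0.528 and 0.447. After group means were subtracted Phf21a (0.925), Rassf6 (0.916), Snx30 (0.912), Wrn (0.894) and Shc3 (0.891) led. The differences of Phf21a from control were -0.02 in R140Q and 0.11 in R172K.

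The samples differed in ways that touch these results. Lung epithelium markers summed to 5340 in R140Q replicate 4 against 421 to 484 in the other 11 samples. Macrophage markers reached 9192 in R172K replicate 4, against 3252 to 4896 in control. In R172K, where 13.0% of all genes were called, 2 of 11 macrophage markers were higher (0 to 6 with single samples left out). Of 11 smooth muscle and pericyte markers 2 were higher and 1 lower in R172K, and 0 of 6 adipocyte and 0 of 9 lung markers passed in any comparison in limma (at most 1 of each list at an unadjusted p under 0.05, and up to 1 adipocyte marker lower with single samples left out). Idh2 itself had levels of 12.74 ± 0.11 in control, 12.45 ± 0.14 in R140Q and 12.38 ± 0.33 in R172K, and which transcripts its probe set reads is not known here, so it does not check the labels.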

How the data were processed

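Total RNA of mouse heart was hybridised to 12 Affymetrix arrays. The authors deposited 1 intensity per probe set and array, made with RMA per the submitters' processing notes. Its version and annotation are not stated in these sources. The values of the deposited table (array medians 74.8 to 78.0, highest intensity 17591) are those of a linear scale, whereas the planned test assumed log2, so log2 was taken with no pseudocount. RMA sets the arrays to one distribution, which hides a shift common to most genes. Without detection calls a dim level may lie at background.

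Of 34760 probe sets, 21640 carried 1 gene symbol, 1321 several and 11799 none in the platform's table. They gave 19937 genes, each by its probe set with the highest mean. Gene IDs of 21553 probe sets matched the GRCm38.p6 gene table, which gave gene order. All 9 members matched RefSeq promoter windows.

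The 3 group means were fitted with limma 3.58.1 in R 4.3.3 (lmFit, eBayes, two-sided; 9 residual and 3.54 prior degrees of freedom). The number of arrays limits the precision. The fit was tested on simulated data with independent noise and the same spread of a gene in every group. That setting holds no outlying samples or unequal spreads, so it does not check the calls made here under them. The 12 lists held 162 genes, of which 157 were measured; Tbx5, Pam, Hand1 and Nfatc1 stand in 2 lists each. The members, lists and rules were chosen with earlier results of these data known. All members were named, with up to 4 genes per list and comparison with the smallest p among those that passed, the 8 nearest genes on each side of Nppb and Nppa, and the 5 with the highest r; other list genes were named after their values were seen. No strong pairing by replicate number was seen: deviations of same-numbered arrays correlated at -0.34 to 0.15 over 12 pairs. Differently numbered arrays were not taken as a reference, so a weaker pairing cannot be told from none. Alternatives covered the arrays fitted, block, probe sets, filter, scale, normalization, variance model, weights, the atrial covariate and the threshold.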

Additional observations from a re-analysis of the deposited data

Results flagged for a closer look

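In 3 of 27 sets of 4 samples (9 genes in 3 groups), 1 sample lay far from the rest by Dixon's test of the gap over the range; chance flags about 1 in 20 such sets. Nppa in R140Q replicate 2 had a log2 intensity of 7.85, where the nearest sample of its group had 12.74. Nppc in control replicate 4 had 6.33, where the nearest had 6.07. Npr1 in R172K replicate 2 had 7.53, where the nearest had 7.33. R140Q replicate 2 also had the lowest Nppb (12.10), Npr1 (7.19) and Npr3 (8.65) levels of its group, and the highest Furin (9.57) and Mme (8.09) levels.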

How the results depend on the processing

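Nppb in both mutants and Mme in R172K passed under all 25 alternatives. The count of members called in R140Q, 2, fell to 1 (Nppb) with the replicate number as a block (Corin limma adjusted p = 0.0709), with every probe set tested (0.0578), with the atrial covariate, and at an adjusted p under 0.01, and ranged from 1 to 2 with single arrays left out. In R172K it stayed at 2, or 3 with array weights (Furin, 0.26) or in some fits with 1 array left out, which ranged from 2 to 3. The replicate block changed no other call of a member. Between the mutants the count of 0 became 1 without genes of low values, on log2(value + 16), after quantile normalization and without 3 arrays (Furin each time, 0.40 to 0.47), and 2 with array weights (Furin 0.51, Mme -0.70); with single arrays left out it ranged from 0 to 2. Differences that turned sign were all small or wide. They were Nppa in R140Q with the atrial covariate (0.13) or with arrays left out (-1.06 to 0.72), and Npr3 in R172K after quantile normalization (-0.0055), with the covariate (-0.069) or with arrays left out (-0.16 to 0.25). Nppc in R140Q ranged from -0.078 to 0.016 with arrays left out. Between the mutants they were Npr1 when centred on medians (-0.012), quantile normalized (-0.0058), weighted (-0.0085) or with the covariate (-0.044), Nppc with weights (0.0065), and Nppb without 3 arrays (0.065); with arrays left out these ranged from -0.058 to 0.057, -0.050 to 0.0073 and -0.43 to 0.042. Of 675 results of single members, 634 kept direction and call, 9 lost the call, 11 gained it and 21 turned sign; except for fits with fewer genes or arrays, the cause was not tested. Over all genes, the 439 called in R140Q became 1342 with 2 groups alone, 196 with the block, 271 with every probe set, 1651 with weights, 74 with the covariate and 73 at 0.01, and 100 to 1015 with arrays left out. The 2593 in R172K became 4491 with weights and 773 at 0.01, and 1327 to 4157 with arrays left out. The 296 between the mutants became 9, 11, 5, 1774, 8 and 1 in the same order as for R140Q, 179 with a trended and robust variance, 806 without 3 arrays, and 1 to 1577 with arrays left out.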
